A study of Mus musculus with 4 samples.

Results

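The genes described here carry glucose into mouse embryonic stem cells and through glycolysis to lactate. They are the transporters Slc2a1 and Slc2a3, the hexokinases Hk1 and Hk2, the phosphofructokinases Pfkl and Pfkp, Aldoa, Pgk1, Ldha and the pyruvate dehydrogenase kinase Pdk1. They were chosen by gene symbol, and all 10 were found among the 23420 symbols of the deposited count tables and passed the expression filter that left 14256 genes for testing. RNA was sequenced in 2 libraries of cells taken after 24 h in 1 µM all-trans retinoic acid (ATRA) and in 2 control libraries of cells taken at 0 h. All 4 come from E14 cells, an embryonic stem cell line that is grown with leukemia inhibitory factor. One label gives the ATRA dose in millimolar, and the titles and the protocol, which give micromolar, were followed. The protocol names dimethyl sulfoxide as the ATRA vehicle without saying whether the 0 h cells received it, and no label says that the replicates were separate cultures, so the p-values reflect library-to-library spread alone, part of which could be technical. Since the controls were taken at 0 h, ATRA and 24 h of culture cannot be told apart.

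In glycolysis, glucose enters through facilitative transporters of the SLC2A family and is trapped by hexokinase as glucose 6-phosphate. Phosphofructokinase makes the committed step, aldolase splits the sugar, phosphoglycerate kinase yields ATP, and lactate dehydrogenase turns pyruvate into lactate. Pyruvate dehydrogenase kinases phosphorylate and switch off the complex that turns pyruvate into acetyl-CoA inside the mitochondrion. Naive mouse embryonic stem cells use both glycolysis and oxidative phosphorylation, retinoic acid drives them out of self-renewal, and many of these genes are known targets of the hypoxia-inducible factor HIF1 and of Myc.

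Counts in genes came to 13337972 and 11086233 in the ATRA libraries, against 31005634 and 21484812 in the control libraries, and a count of 3 in a library stood for 0.0939 to 0.309 CPM (counts scaled to TMM-adjusted library size). GC-rich transcripts were lower in ATRA libraries as a whole: across 14145 genes Spearman's rho between the log2 fold change and transcript GC content was −0.75. Replicates differed along GC content too, with a rho of −0.79 for the ratio of ATRA replicate 2 to ATRA replicate 1. For the ratio of control replicate 2 to control replicate 1 it was −0.31. Values are therefore given both uncorrected and after a correction that removes the GC trend of each library, whatever its source. The 4 genes listed as a check of retinoic acid response (Rarb, Cyp26a1, Hoxb1, Stra8) rose in both fits, with summed levels of 627 and 813 CPM in ATRA libraries and 11.0 and 12.2 CPM in control libraries. The 8 stem cell markers summed to 1649 and 1302 CPM in ATRA libraries, against 3619 and 3621 CPM in control libraries. Of these 8, 3 fell in the uncorrected fit, where 0.407% of all genes were called lower. In the GC-corrected fit 6 fell, beside 7.72% of all genes. Markers of primitive endoderm summed to 52.7 and 79.8 CPM in ATRA libraries and 25.5 and 25.8 CPM in control libraries. Of 5 tested, 0 were called in the uncorrected fit, where 0.723% of all genes were called higher. In the GC-corrected fit 4 were called higher, beside 8.56% of all genes. Sums were 119 and 111 CPM in ATRA libraries against 224 and 164 CPM in control libraries for fibroblast markers, and 42.6 and 56.8 CPM against 137 and 118 CPM for neuronal markers. Tubb3 held 113 and 95.9 CPM of the neuronal sum in control libraries and fell in both fits, while Dcx rose in both. The rest of the 6 neuronal markers passed neither fit. Col1a1 held 141 and 91.9 CPM of the fibroblast sum in control libraries. Of the 6 fibroblast markers 0 were called uncorrected. In the GC-corrected fit 2 of them rose (Pdgfrb and Dcn) and 0 fell, with a list median of 0.93 (0.03 uncorrected). For trophoblast markers the sums were 56.8 and 56.6 CPM in ATRA libraries against 47.8 and 47.4 CPM in control libraries. Of 4 tested, 0 were called uncorrected and 1, Cdx2, was called higher in the GC-corrected fit, with list medians of −0.11 and 0.87. For endothelium and blood the sums were 59.6 and 36.9 CPM in ATRA libraries against 34.5 and 36.3 CPM in control libraries, with Hba-x at 0 counts in all 4. Of 2 tested, 0 were called in either fit. The part of these marker changes in the results that follow was not tested. The RNA came from whole cultures, so fewer cells of a type and less RNA per cell cannot be told apart.

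After 24 h of ATRA, Pfkl, Pfkp, Ldha and Pdk1 were lower than at 0 h in both libraries, and each was about 2 to 3 times lower after correction for GC content. Hk2 and Aldoa were also lower in both ATRA libraries but passed neither edgeR fit, Slc2a3 and Pgk1 overlapped between the groups, and the sign of Slc2a1 and Hk1 turned with the GC correction. In the uncorrected edgeR fit 0 of the 10 genes passed an adjusted p of 0.05 (Benjamini-Hochberg over all genes), where 1.13% of all genes tested passed (0.723% higher, 0.407% lower). An unadjusted p under 0.05 was reached by 5 of them (Pfkl, Pfkp, Aldoa, Ldha and Pdk1), all lower, as it was by 41.7% of all genes and by 22.8% with ATRA lower, and the DESeq2 test called the same 5, beside 30.5% of all genes called by it and 18.0% lower. In the GC-corrected fit 4 fell (Pfkl, Pfkp, Ldha and Pdk1) and 0 rose, against 16.3% of all genes called, 7.72% lower and 8.56% higher. An unadjusted p under 0.05 was reached there by 5 of the 10, against 38.2% of all genes and 18.5% with ATRA lower. The groups did not overlap, with ATRA lower, for 7 genes without the correction (41.5% of all genes) and for 6 with it (34.8% of all genes). With ATRA higher the numbers were 0 (40.0% of all genes) and 1, Hk1 (35.5% of all genes). The median log2 fold change of the 10 genes was −0.87 uncorrected and −0.40 GC-corrected, beside −0.02 and 0.01 over all genes tested.

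**Figure D1:**
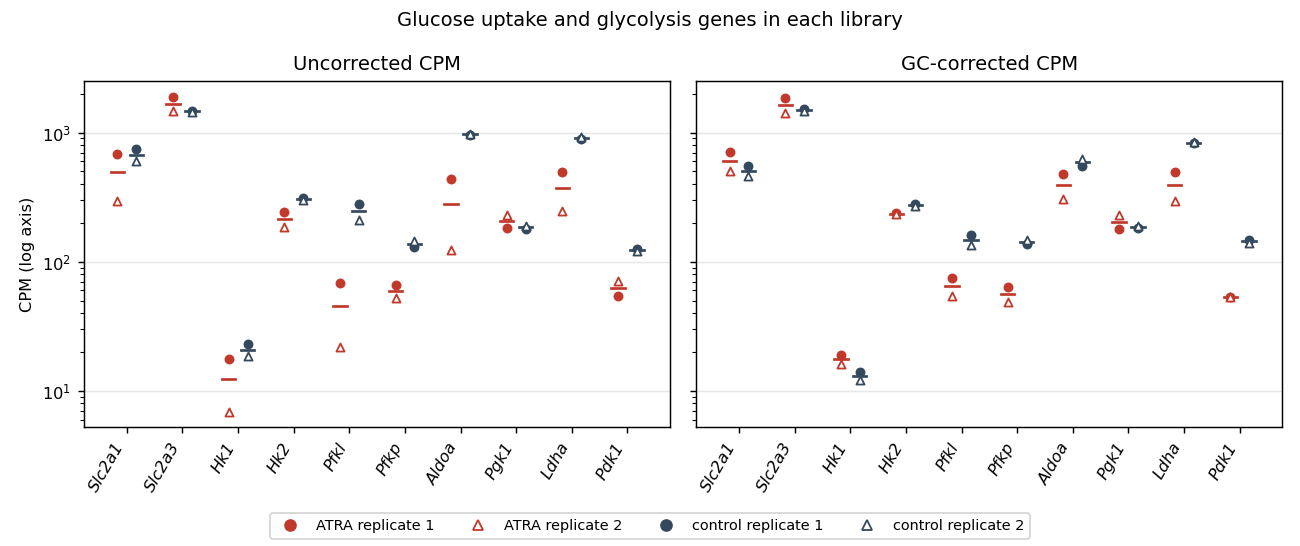
CPM of each gene (log axis) in each library, uncorrected at left and GC-corrected at right, with ATRA libraries in red to the left of control libraries in dark blue, circles for replicate 1, triangles for replicate 2 and a dash at the group mean. CPM is not divided by length, so heights compare libraries within a gene; Pfkl, Pfkp, Ldha and Pdk1 lie below both control points in both panels, and Slc2a3 and Pgk1 overlap in both.

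The number of members called depended on single libraries. Leaving out ATRA replicate 1 gave 9 of 10 called in the uncorrected fit and 7 in the GC-corrected fit, and leaving out ATRA replicate 2 gave 7 and 8. Without control replicate 1 the numbers were 0 and 0, and without control replicate 2 they were 1 (Pfkl) and 0. A library left alone in its group is assumed to vary like the other group, and the share of all genes called shifted too. It was 69.0% uncorrected and 44.7% GC-corrected without ATRA replicate 1, 48.9% and 33.7% without ATRA replicate 2, 0.874% and 0.252% without control replicate 1, and 4.59% and 0.215% without control replicate 2.

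**Figure D2:**
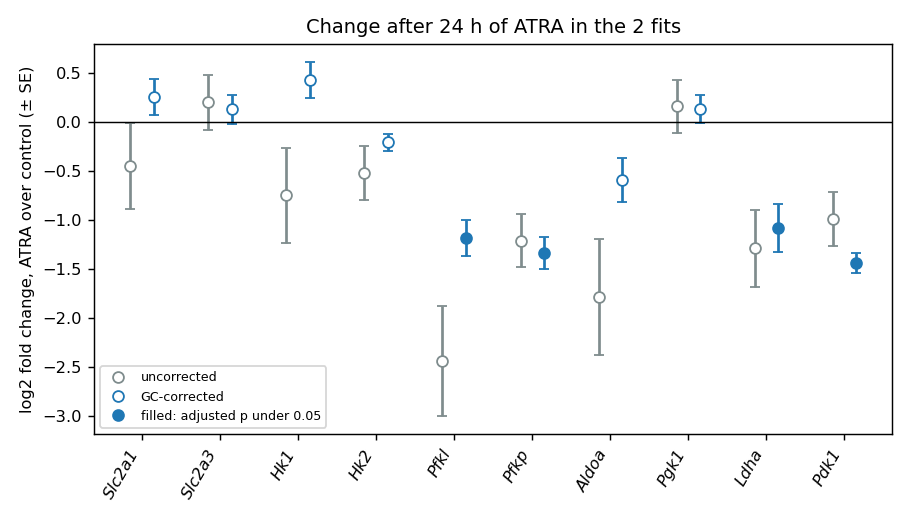
Log2 fold change of ATRA over control for each gene with its standard error, uncorrected in grey and GC-corrected in blue, filled where the adjusted p is under 0.05. Pfkl, Pfkp, Ldha and Pdk1 are filled in the GC-corrected fit and none is filled in the uncorrected fit; the sign of Slc2a1 and Hk1 differs between the 2 fits.

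The upstream sequences of 6 of these genes are printed to show the letters that HIF1 and Myc are known to read, for the 4 genes that fell in the GC-corrected fit and for Hk2 and Pgk1, which did not pass. Each is the 250 bases before the first start listed by RefSeq (build GRCm38.p6; for Pfkl the nearest 197, which leave out an annotated UTR), written 5′ to 3′ on the gene's strand, and a window was at hand for 9 of the 10 genes, Slc2a3 being the other. Capitals mark the hypoxia response element core ACGTG or GCGTG and the E-box CACGTG, read on both strands. The E-box holds the core ACGTG on both strands and is counted under both motifs.
The Pdk1 window is chr2:71872974-71873223, plus strand, that of Pfkp chr13:6648772-6649021, minus strand and that of Pfkl chr10:78009808-78010004, minus strand.
Pdk1: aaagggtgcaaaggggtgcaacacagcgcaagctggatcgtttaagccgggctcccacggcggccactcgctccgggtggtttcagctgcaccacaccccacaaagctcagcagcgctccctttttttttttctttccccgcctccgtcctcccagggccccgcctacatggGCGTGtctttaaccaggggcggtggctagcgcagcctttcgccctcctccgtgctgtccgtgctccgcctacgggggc
Pfkp: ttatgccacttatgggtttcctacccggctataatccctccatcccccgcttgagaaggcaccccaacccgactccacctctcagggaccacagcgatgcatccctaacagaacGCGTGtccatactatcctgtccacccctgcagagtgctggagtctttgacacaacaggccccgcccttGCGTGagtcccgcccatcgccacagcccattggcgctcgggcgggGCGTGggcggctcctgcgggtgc
Pfkl: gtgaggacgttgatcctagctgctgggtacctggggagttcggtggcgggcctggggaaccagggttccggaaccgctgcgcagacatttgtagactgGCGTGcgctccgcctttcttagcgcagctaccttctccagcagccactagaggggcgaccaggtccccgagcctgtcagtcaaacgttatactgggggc
The Ldha window is chr7:46845554-46845803, plus strand, that of Hk2 chr6:82774455-82774704, minus strand and that of Pgk1 chrX:106186850-106187099, plus strand.
Ldha: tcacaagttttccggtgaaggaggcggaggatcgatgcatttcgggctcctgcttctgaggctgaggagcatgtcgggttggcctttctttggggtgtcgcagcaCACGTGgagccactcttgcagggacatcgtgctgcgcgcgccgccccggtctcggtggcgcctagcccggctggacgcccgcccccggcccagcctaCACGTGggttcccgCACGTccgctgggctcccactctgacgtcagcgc
Hk2: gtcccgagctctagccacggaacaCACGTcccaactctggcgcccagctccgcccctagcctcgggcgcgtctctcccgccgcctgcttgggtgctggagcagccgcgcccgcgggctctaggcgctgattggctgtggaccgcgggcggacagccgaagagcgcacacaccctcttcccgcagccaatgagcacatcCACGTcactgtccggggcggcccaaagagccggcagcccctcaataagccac
Pgk1: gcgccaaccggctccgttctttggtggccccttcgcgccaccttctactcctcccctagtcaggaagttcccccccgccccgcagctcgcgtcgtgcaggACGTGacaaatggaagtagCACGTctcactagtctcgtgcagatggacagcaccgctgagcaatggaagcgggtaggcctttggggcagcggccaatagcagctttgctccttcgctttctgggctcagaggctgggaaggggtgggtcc
Read over all 250 bases in each gene, the core was found upstream of 7 of the 9 genes (all but Hk1 and Aldoa), against 38.6% of the 27025 genes with a window. The E-box was found only upstream of Ldha among the 9, against 6.05% of all genes with a window. Pdk1 and Pfkl had 1 core each, Pfkp 3 and Ldha 5 (4 of them within its 2 E-boxes), while Hk2 and Pgk1, which did not pass, had 2 each. GC content of these 6 sequences ran from 62.4% to 69.6%, where the median over all genes was 52.0%, and a match of letters does not show a bound site. The first RefSeq start of Ldha and that of Pfkl lie inside the gene's GENCODE span, so their windows sit downstream of the outermost annotated start.

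Slc2a1 (GLUT1; chr4:119108711-119137983) is the broadly expressed transporter of basal glucose uptake, and Slc2a3 (GLUT3; chr6:122727809-122801640) is a high-affinity transporter abundant in early embryos and neurons. Slc2a3 had 1891 and 1456 CPM in ATRA libraries, against 1465 and 1447 CPM in control libraries. The ATRA libraries overlapped the control libraries, and the log2 fold change was 0.20 ± 0.28 (SE; edgeR adjusted p = 0.589) uncorrected and 0.13 ± 0.14 (edgeR adjusted p = 0.545) GC-corrected. Leaving out ATRA replicate 2 gave 0.39 and 0.33 in the 2 fits, both called, while leaving out ATRA replicate 1 gave −0.02 and −0.08.

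Slc2a1 had 687 and 296 CPM in ATRA libraries, against 740 and 601 CPM in control libraries. ATRA replicate 2 lay below the other 3 libraries, which overlapped, and the log2 fold change was −0.45 ± 0.44 (edgeR adjusted p = 0.443). After GC correction the levels were 701 and 505 CPM in ATRA libraries and 551 and 461 CPM in control libraries, and the fold change was 0.25 ± 0.18 (edgeR adjusted p = 0.352), the other sign. Per kilobase of the longest protein-coding transcript, uncorrected, Slc2a3 was the more abundant transporter in every library. It held 69.4% and 80.2% of the summed Slc2a1 and Slc2a3 level in ATRA libraries and 62.0% and 66.5% in control libraries. Scaled by all annotated exon bases (3506 for Slc2a1, 7245 for Slc2a3), Slc2a1 came first in control replicate 1, so the order rests on the length used. After GC correction the Slc2a3 shares per kilobase of transcript were 68.5% and 69.6% in ATRA libraries and 69.3% and 72.4% in control libraries, which overlap.

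Hk1 (chr10:62268855-62379908) and Hk2 (chr6:82725025-82774454) phosphorylate glucose, Hk1 as the housekeeping form and Hk2 as the form typical of growing cells and insulin-sensitive tissue. Hk2 had 243 and 185 CPM in ATRA libraries, against 311 and 301 CPM in control libraries. Both ATRA libraries lay below both control libraries, yet the log2 fold change of −0.52 ± 0.27 (edgeR adjusted p = 0.188) did not pass, nor did −0.21 ± 0.09 (edgeR adjusted p = 0.152) after GC correction. Hk1 was scarce, with 17.7 and 6.91 CPM in ATRA libraries (251 and 67 counts) and 23.3 and 18.5 CPM in control libraries (743 and 416 counts). Its ATRA libraries lay below the control libraries uncorrected (log2 fold change −0.75 ± 0.49, edgeR adjusted p = 0.266) and above them after GC correction, at 19.1 and 16.1 CPM against 14.1 and 12.2 CPM (0.43 ± 0.18, edgeR adjusted p = 0.151).

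Of the summed Hk1 and Hk2 level per kilobase, Hk2 held 91.4% and 95.4% in ATRA libraries and 91.2% and 92.6% in control libraries, which overlap. After GC correction its share was 90.7% and 91.8% in ATRA libraries, against 93.9% and 94.5% in control libraries, and the groups did not overlap. Hk2 was thus the more abundant of the pair in every library on both scales.

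Pfkl and Pfkp, phosphofructokinases that phosphorylate fructose 6-phosphate, were lower in both ATRA libraries on both scales. Pfkl, the liver-type subunit (chr10:77986947-78010083), had 68.4 and 22.0 CPM in ATRA libraries, against 281 and 211 CPM in control libraries. Both ATRA libraries lay far below both control libraries, and ATRA replicate 2 was the lowest. The log2 fold change was −2.44 ± 0.56 uncorrected (edgeR adjusted p = 0.0664) and −1.18 ± 0.19 GC-corrected (edgeR adjusted p = 0.0227), so the size of the change differed between the fits by more than 1 log2 unit.

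Pfkp, the platelet-type subunit (chr13:6579768-6648777), had 65.7 and 52.7 CPM in ATRA libraries, against 130.2 and 144 CPM in control libraries. The groups did not overlap, and the log2 fold change was −1.21 ± 0.27 uncorrected (edgeR adjusted p = 0.0652) and −1.34 ± 0.16 GC-corrected (edgeR adjusted p = 0.0144). Pfkp has a transcript of lower GC content (48.9%) than Pfkl (57.1%). Pitrm1, on the opposite strand, overlaps 18.0% of the Pfkp transcript (5.58% of all its annotated exon bases), and reads of the pair cannot be told apart without a strand setting. The muscle-type Pfkm had 29.8 and 14.3 CPM in ATRA libraries, against 49.1 and 49.1 CPM in control libraries, and did not pass in the GC-corrected fit (log2 fold change −0.28 ± 0.14, edgeR adjusted p = 0.192). Its share of the 3 subunits was 23.2% and 21.1% in ATRA libraries, against 13.8% and 15.8% in control libraries, and the groups did not overlap after GC correction either, at 23.1% and 26.1% against 13.6% and 14.8%.

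Aldoa (chr7:126795234-126800751), the aldolase of muscle and most proliferating cells, had 439.9 and 123 CPM in ATRA libraries, against 955 and 981 CPM in control libraries. Both ATRA libraries lay below the control libraries, 1 of them far lower than the other. The log2 fold change was −1.78 ± 0.59 uncorrected (edgeR adjusted p = 0.0890) and −0.59 ± 0.22 GC-corrected (edgeR adjusted p = 0.122), and neither passed. The DESeq2 test called it, as did the fits without ATRA replicate 1 (−2.99 uncorrected, −0.95 GC-corrected) and without ATRA replicate 2 (−1.13 uncorrected, −0.29 GC-corrected). Aldoa held 99.3% and 98.3% of the Aldoa and Aldoc level in ATRA libraries, against 99.2% and 99.2% in control libraries.

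Pgk1 (chrX:106187100-106203699), phosphoglycerate kinase, catalyses an ATP-yielding step of the payoff phase. It had 182 and 231 CPM in ATRA libraries, against 180 and 190 CPM in control libraries. The groups overlapped, and the log2 fold change was 0.16 ± 0.27 uncorrected (edgeR adjusted p = 0.654) and 0.13 ± 0.14 GC-corrected (edgeR adjusted p = 0.529). Copies in other genes share at least 95% of the letters over 68.8% of its transcript. The summary line for reads aligned to several places held 0 in every library. Whether such reads were dropped earlier or counted is not given, so the Pgk1 value is uncertain.

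Ldha (chr7:46841475-46855627) makes the lactate dehydrogenase subunit that favours lactate formation. It had 498 and 247 CPM in ATRA libraries, against 898 and 919 CPM in control libraries. ATRA libraries lay below both controls, and the spread between them was wider than that of the controls. The log2 fold change was −1.29 ± 0.39 uncorrected (edgeR adjusted p = 0.0811) and −1.08 ± 0.24 GC-corrected (edgeR adjusted p = 0.0431). Copies elsewhere share 55.0% of its transcript at 95% identity or more, so the Ldha value is uncertain in the same way as that of Pgk1. Ldhb, which favours pyruvate formation, had 106 and 50.3 CPM in ATRA libraries and 98.8 and 109 CPM in control libraries. Ldha made up 77.2% and 77.9% of the summed length-scaled level in ATRA libraries, against 86.7% and 85.8% in control libraries, and 77.0% and 74.1% against 88.0% and 87.0% after GC correction.

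Pdk1 (chr2:71873224-71903858) had 54.6 and 71.0 CPM in ATRA libraries, against 126 and 122 CPM in control libraries. The groups did not overlap, and the log2 fold change was −0.98 ± 0.28 uncorrected (edgeR adjusted p = 0.0752) and −1.44 ± 0.10 GC-corrected (edgeR adjusted p = 0.00547), the smallest adjusted p of the 10 genes. Pdk3, another kinase of the same family, went the other way, with 86.2 and 142 CPM in ATRA libraries against 46.8 and 44.1 CPM in control libraries. It rose by a log2 fold change of 1.03 ± 0.19 in the GC-corrected fit (edgeR adjusted p = 0.0317) and had 1.33 ± 0.33 in the uncorrected one (edgeR adjusted p = 0.0690).

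Pdk1 and Pdk3 have similar transcript GC content, 46.4% and 47.7%, and their shares moved little with the correction. Pdk1 made up 19.8% and 16.5% of the 4 kinases per kilobase in ATRA libraries, against 48.9% and 49.8% in control libraries, and 19.7% and 15.0% against 51.3% and 51.9% after GC correction. Pdk3 made up 76.6% and 81.4% in ATRA libraries, against 44.4% and 44.0% in control libraries. Pdk2 and Pdk4 held the small remainder. With 2 libraries against 2, the exact two-sided permutation test cannot go below p = 0.333, which is the value for these shares (15 shares on 2 scales were compared, so no share can pass after adjustment).

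**Figure D3:**
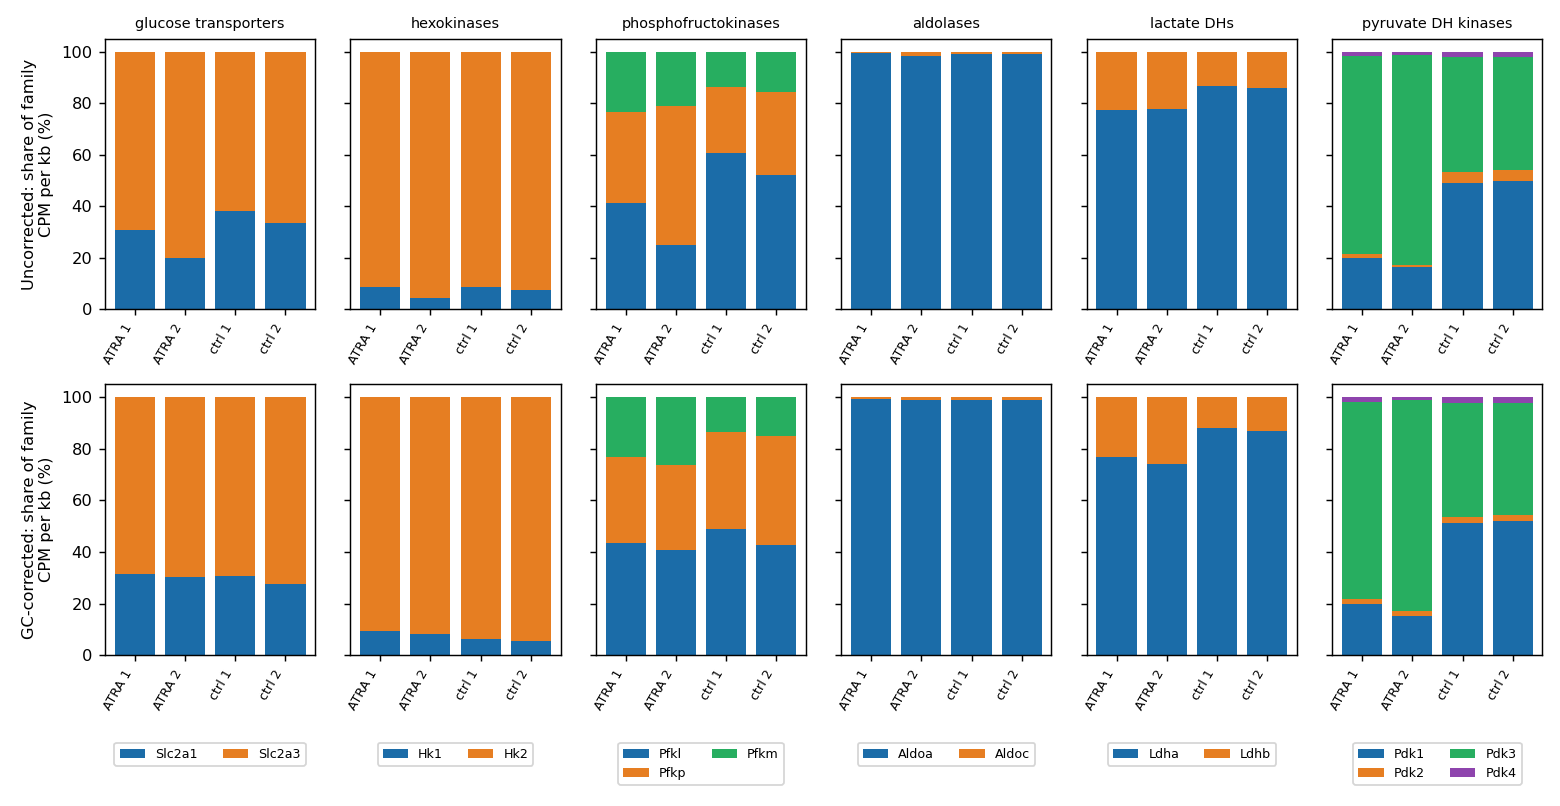
Share of each family's CPM per kilobase (%) taken by each gene in every library, ATRA libraries left and controls (ctrl) right, uncorrected above and GC-corrected below. The Pdk1 share is 15.0% to 19.8% in ATRA libraries and 48.9% to 51.9% in controls, and Pdk3 takes most of the difference; the phosphofructokinase shares of Pfkl and Pfkp change with the correction.

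The 4 genes that fell in the GC-corrected fit had adjusted p-values that ranged widely over the alternatives: 3.57e-07 to 0.189 for Pfkl, 1.86e-10 to 0.401 for Pfkp, 4.34e-13 to 0.405 for Ldha and 3.01e-10 to 0.522 for Pdk1. Their log2 fold change stayed below 0 in all 18 alternatives, from −3.50 to −0.98 for Pfkl, −1.54 to −1.05 for Pfkp, −1.90 to −0.75 for Ldha and −1.48 to −0.82 for Pdk1. That of Hk2 (−0.74 to −0.17) and Aldoa (−2.99 to −0.29) did so too, and all alternatives draw on the same libraries. The GC-corrected calls of all 4 were lost without either control library: without control replicate 1 the edgeR adjusted p was 0.189 for Pfkl, 0.119 for Pfkp, 0.216 for Ldha and 0.0810 for Pdk1, and without control replicate 2 it was 0.133, 0.133, 0.203 and 0.0812.

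Uncorrected levels per kilobase of transcript put Slc2a3 at the top of the 10 genes in ATRA libraries (423 ± 77.8 CPM per kb, SD, n = 2), ahead of Ldha (205 ± 98.0) and Aldoa (182 ± 144), whose libraries overlapped each other. Slc2a1 (151 ± 84.8) and Pgk1 (113 ± 19.0) came next, and Hk2 (38.8 ± 7.40), Pfkp, Pfkl, Pdk1 and Hk1 were lower still. In control libraries, also uncorrected, Aldoa came first (625 ± 11.7 CPM per kb), then Ldha (501 ± 8.06), Slc2a3 (368 ± 3.23), Slc2a1 (206 ± 30.3) and Pgk1 (101 ± 3.78), with no overlap between these neighbours. Pdk1 (12.1 ± 2.23 CPM per kb in ATRA libraries, 23.9 ± 0.589 in control libraries) and Hk1 (2.88 ± 1.79 and 4.89 ± 0.787) were the lowest in control libraries. GC correction changed the order at the top. In ATRA libraries Slc2a3 (412 ± 79.5) then came before Aldoa (253 ± 80.3) and Ldha (217 ± 76.9), and in control libraries Ldha came first (459 ± 5.87), ahead of Aldoa (381 ± 35.4) and Slc2a3 (376 ± 7.63), which overlapped.

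**Figure D4:**
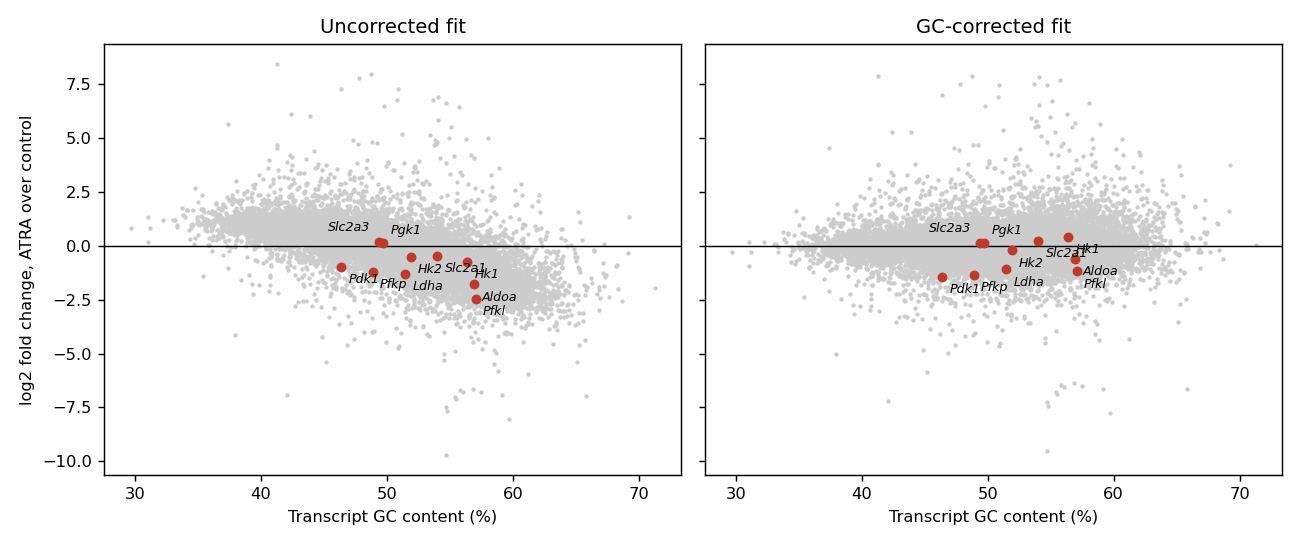
Log2 fold change of ATRA over control against transcript GC content (%) for all genes tested (grey) and the 10 genes (red), uncorrected at left and GC-corrected at right. GC-rich Pfkl, Aldoa, Hk1 and Slc2a1 move up with the correction, while Pdk1 moves down from −0.98 to −1.44 and Pfkp from −1.21 to −1.34.

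Transcript GC content of the 10 genes ran from 46.4% for Pdk1 to 57.1% for Pfkl, around a median of 50.2% for all genes tested. The 4 GC-richest (Pfkl, Aldoa, Hk1 and Slc2a1) also differed most between ATRA replicates, with log2 ratios of replicate 2 to replicate 1 of −1.64, −1.83, −1.36 and −1.22. The GC-poorer Pdk1 and Pgk1 had ratios of 0.38 and 0.34. After correction the ratios of the 10 genes ran from −0.74 (Ldha) to 0.37 (Pgk1).

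In the rest of the pathway no list had an uncorrected edgeR call except the Myc list, and GC-corrected calls are given beside 16.3% of all genes called in that fit. The DESeq2 test, which called 30.5% of all genes, called 8 of 13 other glycolytic enzymes, 4 of 19 genes for the fate of pyruvate and lactate, 4 of 7 pentose phosphate genes and 0 of 7 flux regulators. Of 13 tested other glycolytic enzymes, the GC-corrected fit had 1 higher and 2 lower, of which Aldoc, the brain aldolase, had −1.24 ± 0.20 (edgeR adjusted p = 0.0236) and Pkm, pyruvate kinase, had −0.67 ± 0.14 (edgeR adjusted p = 0.0386). The median of that list was −1.21 uncorrected and −0.46 GC-corrected. Copies in other genes share 65.5% of the Pkm transcript at 95% identity or more, so the Pkm value is uncertain, as for Pgk1. The same holds for Gapdh (88.0%) and Eno1 (85.6%), which also enter the median of that list. Of the 6 tested other transporters 0 were called by edgeR in either fit (2 uncorrected and 0 GC-corrected at an unadjusted p under 0.05, and 1 by the DESeq2 test), and the most abundant, Slc2a8, had 3.60 and 1.55 CPM in ATRA libraries against 11.0 and 6.73 CPM in control libraries. After GC correction Slc2a8 overlapped, at 4.52 and 4.96 CPM in ATRA libraries and 4.75 and 3.81 CPM in control libraries. Of 7 regulators of flux, Tigar, the fructose bisphosphatase that diverts sugar from glycolysis, was lower (−0.73 ± 0.11, edgeR adjusted p = 0.0223).

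In the pentose phosphate pathway, the branch that makes NADPH and ribose, 3 of 7 genes were lower in the GC-corrected fit. They were the transaldolase Taldo1 (−1.66 ± 0.33, edgeR adjusted p = 0.0349), the transketolase Tkt (−1.47 ± 0.30, edgeR adjusted p = 0.0379) and Pgd (−0.96 ± 0.18, edgeR adjusted p = 0.0314). Of 19 genes for the fate of pyruvate and lactate, 2 were higher and 4 lower. Among them the pyruvate dehydrogenase subunits Pdhb and Pdha1 had −0.85 ± 0.13 and −0.54 ± 0.09 (edgeR adjusted p = 0.0218 and 0.0241), and the lactate carrier Slc16a1 had −0.61 ± 0.10 (edgeR adjusted p = 0.0231). Without the correction Slc16a1 had the other sign (0.21 ± 0.30, edgeR adjusted p = 0.598), with 180 and 272 CPM in ATRA libraries against 201 and 189 CPM in control libraries. Pdha1 had 0.0086 ± 0.27 uncorrected (edgeR adjusted p = 0.982), and Pdhb −0.53 ± 0.25 (edgeR adjusted p = 0.156). Of 16 TCA cycle genes 0 were called by edgeR in either fit (5 uncorrected and 3 GC-corrected at an unadjusted p under 0.05, and 3 by the DESeq2 test), and Cs, citrate synthase, had 348 and 213 CPM in ATRA libraries and 344 and 359 CPM in control libraries.

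**Figure D5:**
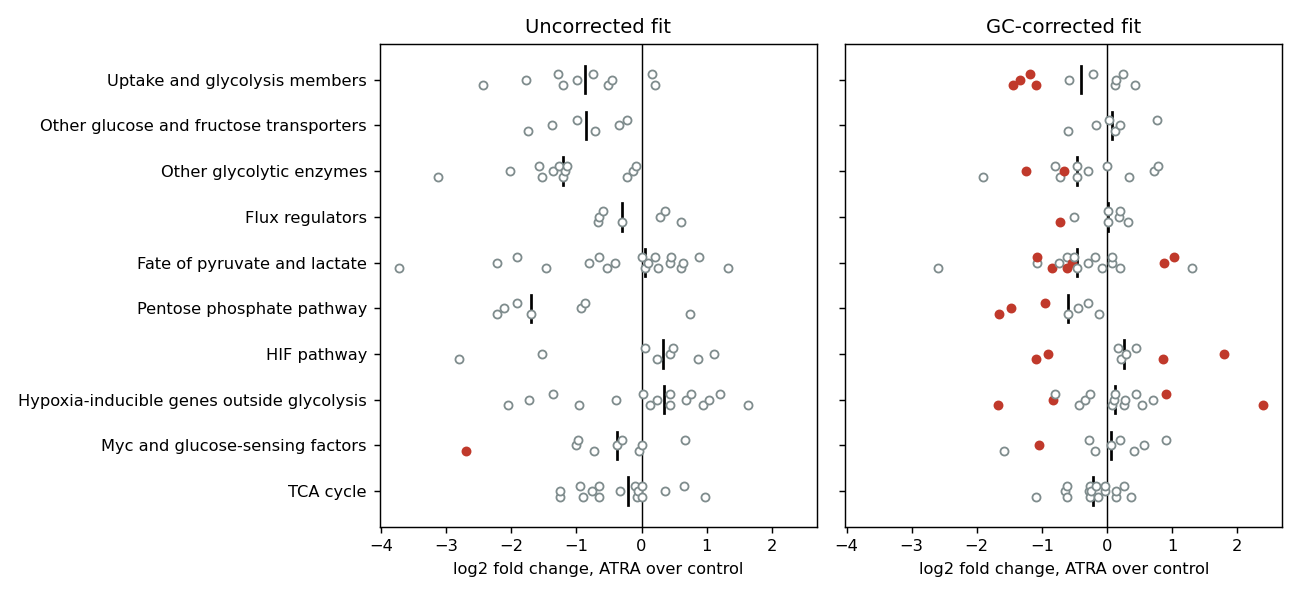
Log2 fold change of each tested gene by list, uncorrected at left and GC-corrected at right, with red filled points for an edgeR adjusted p under 0.05 and a bar at the list median. Of the other glycolytic enzymes 1 is not drawn but counts in its list's median. The 10 genes have medians of −0.87 and −0.40, against −0.21 in both fits for the TCA cycle.

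Known regulators of these genes, and hypoxia-inducible genes outside glycolysis, gave calls in both directions, as did all genes tested (8.56% higher and 7.72% lower in the GC-corrected fit). Hif1a, the oxygen-sensitive subunit of HIF1, had 319 and 587 CPM in ATRA libraries and 205 and 214 CPM in control libraries, with log2 fold changes of 1.11 ± 0.36 uncorrected (edgeR adjusted p = 0.0861) and 0.16 ± 0.09 GC-corrected (edgeR adjusted p = 0.254). In the GC-corrected fit 2 of 8 HIF pathway genes rose, Vhl (0.87 ± 0.17) and the prolyl hydroxylase Egln1 (1.80 ± 0.40), and 2 fell, Epas1 (−1.09 ± 0.19) and Egln2 (−0.90 ± 0.18), at edgeR adjusted p-values of 0.0281 to 0.0425. Uncorrected, these had 0.87 (Vhl), 0.43 (Egln1), −1.53 (Epas1) and −2.80 (Egln2). Of 16 hypoxia-inducible genes outside glycolysis 2 rose, the carbonic anhydrase Car9 (2.39 ± 0.32) and P4ha2 (0.90 ± 0.19), and 2 fell, Ndrg1 (−1.67 ± 0.21) and Anxa2 (−0.84 ± 0.18), at edgeR adjusted p-values of 0.0154 to 0.0400. Uncorrected, these had 1.64 (Car9), 0.12 (P4ha2), −2.06 (Ndrg1) and −1.35 (Anxa2). The DESeq2 test called 3 of the 8 HIF pathway genes and 7 of the 16 hypoxia-inducible genes, beside 30.5% of all genes. Mycn, a Myc family factor typical of stem cells, had 36.1 and 51.2 CPM in ATRA libraries against 300.3 and 264 CPM in control libraries. It fell in the uncorrected fit (−2.70 ± 0.31, edgeR adjusted p = 0.0343) and had −1.58 ± 0.43 in the GC-corrected one (edgeR adjusted p = 0.0642). Max, the partner of Myc proteins, fell in the GC-corrected fit (−1.04 ± 0.20, edgeR adjusted p = 0.0337).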

How the data were processed

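RNA sequencing of 2 ATRA and 2 control libraries was analysed. The authors deposited raw counts per gene symbol, made per the submitters' processing notes with build mm10 and, in no stated order, HTSeq 0.6.0, TopHat2 2.0.7, Cuffdiff 2.0.2 and Cufflinks 2.0.2. Annotation and strand setting were not given in the sources used here. Groups came from the sample titles. The 5 summary lines per table entered neither library sizes nor tests. Among them, reads outside annotated genes were 64.7% and 66.2% of counted reads in ATRA libraries and 63.4% and 63.9% in control libraries.

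Counts were fitted with edgeR 4.0.16 in R 4.3.3: filterByExpr, TMM factors, a robust bias-adjusted quasi-likelihood fit and F test, and Benjamini-Hochberg adjustment with a threshold of 0.05. CPM use TMM-scaled library sizes, and a standard error (SE) is |log2 fold change| / √F. The GC-corrected fit adds offsets from a robust natural spline (5 degrees of freedom, MASS 7.3.60.0.1) of each library's log2 CPM (prior count 2) on transcript GC content, for genes with a mean log2 CPM above 1. GC content, length and coordinates are from GENCODE M21 (GRCm38), by longest protein-coding transcript; 21777 symbols matched directly and 1260 through an older symbol. Copies were sought with BLAST 2.17.0. DESeq2 1.42.0 and other settings were alternatives. The fits were tested on simulated counts. Depth is 11086233 to 31005634 counts per library, and floors cover counting error only.

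The 10 genes, the lists and the rule for named genes (all 10, and from each list up to 4 called members by smallest p, else the most abundant one) were chosen with earlier results of these data known. Tigar is listed under an older symbol. Counts of the replicates differed by more than sampling noise in both groups. This cannot show whether they came from separate RNA or separate libraries, since technical spread can exceed sampling noise as well. One gene that this rule names is not reported here and stays in the counts and medians.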

Additional observations from a re-analysis of the deposited data

Results flagged for a closer look

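Reads assigned to no annotated gene, which enter no comparison, were a larger share in the ATRA libraries than in the control libraries. They made up 64.7% in ATRA replicate 1 and 66.24% in ATRA replicate 2, against 63.4% and 63.9% in the control libraries. Their part in the levels of the 10 genes was not tested.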

How the results depend on the processing

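Over all genes, the uncorrected edgeR fit called 161 genes, 64.0% of them higher with ATRA. The number was 2321 with GC correction, 603 with DESeq2 size factors (38.5% higher), 4350 with the DESeq2 test, 84 with at least 5 CPM in 2 libraries, 4401 with the replicate block, 2627 with GC correction and the replicate block, 86 with edgeR's legacy fit and 2383 with that fit and GC correction. Leaving out 1 library gave 125 to 10289 genes. With GC correction it gave 6662 and 5029 without ATRA replicates 1 and 2, and 36 and 31 without control replicates 1 and 2.

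Of the 10 glucose uptake and glycolysis genes, 0 were called in the uncorrected fit, 4 with GC correction (also with the block or the legacy fit), 5 with the DESeq2 test and 4 with the replicate block alone (Pfkl, Pfkp, Aldoa and Ldha). Leaving out 1 library gave 0 to 9. With GC correction it gave 7 and 8 without ATRA replicates 1 and 2, and 0 without either control. The replicate numbers are shared by the titles only: deviations of same-numbered libraries correlated at 0.183 uncorrected and −0.0464 GC-corrected. The legacy fit was added after seeing the data. Scaling by all annotated exon bases instead of transcript length moved 23 group means of isozyme shares by at least the SD between libraries, and 7 by less.

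Among 180 values of single genes under an alternative, 110 kept direction and side of the threshold, 51 passed it in addition and 19 changed sign. Slc2a1 was −0.45 uncorrected and 0.25 with GC correction, 0.24 with the block added, 0.26 with the legacy fit, and −1.20 to 0.048 lacking 1 library (0.048 without ATRA replicate 2). GC-corrected, Slc2a1 was 0.0060 and 0.47 without ATRA replicates 1 and 2, and 0.38 and 0.12 without control replicates 1 and 2. Hk1 was −0.75 uncorrected and 0.43, 0.42 and 0.44 under the same first 3 settings, and GC-corrected 0.30 and 0.54 without ATRA replicates 1 and 2, and 0.52 and 0.32 without control replicates 1 and 2. Slc2a3 was −0.016 to 0.39 lacking 1 library and negative without ATRA replicate 1 (−0.077 GC-corrected). Pgk1 was −0.011 to 0.31 and negative without ATRA replicate 2 (−0.048 GC-corrected). Their causes were not tested. Without ATRA replicate 1 the median of all genes shifted to −0.12. Depth is lower in the ATRA libraries, where Hk1 had 251 and 67 counts.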
